A study of Mus musculus with 8 samples.

Results

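The osteocalcin genes Bglap, Bglap2 and Bglap3 were taken by symbol and by their place on chromosome 3, which gave 3 of the 49315 genes counted. All 3 had RPKM (reads per kilobase of exon and per unit of sequencing depth) above 2 in a sorted library. Their levels were compared across RNA-seq libraries of 7 bone marrow stromal populations, which were sorted as clusters 1 to 7 and are named Cl1 to Cl7 here, and in a library of unsorted input marrow cells.

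Osteocalcin, or bone Gla protein, is a small protein that osteoblasts secrete into the bone matrix. It is made as a longer precursor, is carboxylated on glutamate residues by a vitamin K-dependent enzyme, is cleaved by the protease furin and binds to hydroxyapatite, and a part of it that is not fully carboxylated reaches the circulation. Mice carry a tandem cluster of such genes, of which Bglap and Bglap2 are known as the forms of bone and Bglap3 as a related gene known from kidney and other tissues. Transcription of osteocalcin is known to rise late in osteoblast differentiation, after that of collagen and alkaline phosphatase.

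All libraries were labelled as from wild-type C57BL/6J mice at 6 weeks of age, and the study's methods name C57BL/6JJcl mice and an age range that runs further. For the sorts, cells without CD31, CD45 and Ter119 were gated as CD24- Sca-1+ CD39+ (cluster 1), Ly-6C- CD39- CD24- (cluster 2), Ly-6C+ CD24+ without CD39 and CD54 (cluster 3), Ly-6C- CD54+ CD24- (cluster 4), CD54+ CD121b- without CD24 and Ly-6C (cluster 5), CD24+ Sca-1- CD39- (cluster 6) and CD54- Sca-1+ without CD24 and Ly-6C (cluster 7), as read from the study's sort plots. The labels describe the extraction from crushed marrow and give the input library no gate. There was 1 library for each population, so no difference between populations could be tested, and intervals of shares and ratios cover counting error only. The reads counted on genes summed to 24205863 in Cl1, 25349917 in Cl2, 27102715 in Cl3, 32549319 in Cl4, 12833648 in Cl5, 31669132 in Cl6, 33238133 in Cl7 and 20162876 in the input.

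The libraries followed their gates in part. RPKM of Cd24a, which encodes CD24, was highest in Cl6 (137), gated as positive, but was 49.9 in Cl3, gated as positive, and 126 in Cl2, gated as negative. Entpd1, which encodes CD39, had 8.55 in Cl1, gated as positive, and 2.27 to 4.52 in Cl2, Cl3 and Cl6, gated as negative. Ly6a, which encodes Sca-1, followed its gates, with RPKM of 4.98 in Cl6 and 226 in Cl7. Icam1, which encodes CD54, was highest in Cl4 (237), gated as positive, but had 149.6 in Cl7, gated as negative, and 44.5 in Cl5, gated as positive. Of the genes of Ly-6C, Ly6c1 was highest in Cl3, gated as positive (409.9), but Ly6c2 had 36.9 in Cl3 and 116 in Cl7, gated as negative. The 7 listed neutrophil genes were above RPKM 2 in all 8 libraries although CD45+ cells were gated out, and their summed RPKM was lowest in Cl3 (10805) and highest in the input (42331). Rn18s-rs5, Lars2 and mmu-mir-689-2 took up 34.8% of all counts of Cl5 but 0.274% of those of Cl7, and these counts enter the total by which RPKM is divided.

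The coding sequences are shown because they decide how well reads of the genes can be told apart. They were read from the GENCODE vM1 transcripts of NCBIM37, run 5′ to 3′ from the start to the stop codon, and have 288 bases each. Capitals mark the bases of Bglap that differ from Bglap2, and the bases of Bglap2 and Bglap3 that differ from Bglap.
Bglap: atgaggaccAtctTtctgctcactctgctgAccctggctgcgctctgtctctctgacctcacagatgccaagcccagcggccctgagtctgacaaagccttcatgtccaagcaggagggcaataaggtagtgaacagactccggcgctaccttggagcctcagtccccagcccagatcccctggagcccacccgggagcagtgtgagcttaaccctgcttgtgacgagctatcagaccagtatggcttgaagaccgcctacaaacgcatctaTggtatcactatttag
Bglap2: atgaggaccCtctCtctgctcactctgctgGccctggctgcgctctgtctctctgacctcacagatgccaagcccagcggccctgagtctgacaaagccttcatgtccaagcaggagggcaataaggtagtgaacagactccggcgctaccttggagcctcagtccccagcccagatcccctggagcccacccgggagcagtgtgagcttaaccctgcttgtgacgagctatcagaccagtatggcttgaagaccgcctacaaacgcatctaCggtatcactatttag
Bglap3: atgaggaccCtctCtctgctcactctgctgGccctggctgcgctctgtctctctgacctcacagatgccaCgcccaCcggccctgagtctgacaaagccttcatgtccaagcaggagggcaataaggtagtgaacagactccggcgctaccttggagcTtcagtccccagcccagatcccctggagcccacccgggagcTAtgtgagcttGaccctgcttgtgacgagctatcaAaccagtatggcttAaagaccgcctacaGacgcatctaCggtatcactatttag

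Bglap and Bglap2 differed at 4 of the 288 coding bases (identity 98.6%), 3 of them in the first 96 bases, and shared a run of 241 identical bases. Bglap3 differed from Bglap at 13 bases (95.5%) and from Bglap2 at 9 bases (96.9%), 7 and 6 of them in the last 96 bases. In the spliced transcripts, 31.6% of the 150-base windows of Bglap, the read length of the study, were found unchanged in Bglap2, and none were found in Bglap3. At 50 bases, 74.7% of the windows of Bglap were found in Bglap2 and 20.5% in Bglap3. The study's methods give paired reads, whereas each window stands for a single read. The share of read pairs that match both genes was not computed. The treatment of reads that match several genes is not given in the sources used here, so the division of counts between Bglap and Bglap2 is uncertain, and the counts of both would be lower if such reads were left out. The study's forward primer for Bglap in quantitative PCR, gggcaataaggtagtgaacag, matched coding bases 117 to 137 of all 3 genes without a mismatch, so this primer does not separate them.

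In the deposited coordinates of GRCm38, the genes lie on the minus strand of chromosome 3 and are transcribed in the same direction. Bglap3 (ENSMUSG00000074489) spans 88368616 to 88372743, Bglap2 (ENSMUSG00000074486) spans 88377736 to 88378699 and Bglap (ENSMUSG00000074483) spans 88383501 to 88384464. Their spans leave gaps of 4992 bases between Bglap3 and Bglap2 and 4801 bases between Bglap2 and Bglap. The exons counted summed to 618 bases for Bglap, 471 for Bglap2 and 2629 for Bglap3. The spliced transcripts read above have 440, 471 and 717 bases, so that dividing by the exon length lowers the RPKM of Bglap and, more so, of Bglap3 relative to Bglap2. No other counted gene overlaps their spans.

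Promoters were read from a table of RefSeq sequences (GRCm38.p6), in which 2 of the 3 genes, Bglap and Bglap3, were matched. The 250 bases before the start are shown for Bglap and for the outermost of the 3 starts of Bglap3, because the levels of both genes followed a similar order over the libraries. Capitals mark matches on either strand to the letters ACCACA, the core bound by Runx2 and its relatives, TTACATCA, known from osteocalcin promoters as the element OSE1, and TATAAA, the TATA box. Both stretches are on the minus strand, at chr3:88384467-88384716 for Bglap and chr3:88372742-88372991 for Bglap3.
Bglap: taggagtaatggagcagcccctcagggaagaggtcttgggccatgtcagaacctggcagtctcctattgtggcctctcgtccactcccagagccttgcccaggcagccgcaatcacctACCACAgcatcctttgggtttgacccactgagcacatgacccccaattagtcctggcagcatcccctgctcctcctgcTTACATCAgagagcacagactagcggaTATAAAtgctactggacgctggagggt
Bglap3: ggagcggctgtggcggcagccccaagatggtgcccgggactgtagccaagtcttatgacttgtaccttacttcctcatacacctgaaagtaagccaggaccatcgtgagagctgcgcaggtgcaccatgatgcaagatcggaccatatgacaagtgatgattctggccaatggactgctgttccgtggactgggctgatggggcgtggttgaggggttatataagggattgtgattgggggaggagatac

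The Bglap promoter held each of these motifs once, with first bases 132, 54 and 27 bases before the start in the order of the list above. Of 32851 promoter entries of the same length, 14.0% held ACCACA, 0.965% held TTACATCA and 12.4% held TATAAA on either strand. The 3 entries of Bglap3 held none of these letters. The Bglap3 stretch shown does hold tatataag near its end, which resembles the TATA box but does not match TATAAA, so the lack of a TATA box does not follow. E-boxes (CANNTG, on either strand, in 66.2% of all entries) were found once before Bglap and 4 times in the Bglap3 stretch shown. A match of letters does not show that a site is bound, and the absence of these letters in the window says nothing about a factor.

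Osteocalcin was highest in Cl3 and in Cl6, intermediate in Cl5 and Cl2, low in Cl7, Cl1 and Cl4, and lowest in the input. The summed RPKM of Bglap, Bglap2 and Bglap3 was 23986 in Cl3, 18779 in Cl6, 8419 in Cl5, 5587 in Cl2, 646 in Cl7, 455 in Cl1, 384 in Cl4 and 34.9 in the input. The 4 upper libraries were thus set apart from the 3 lower ones by a step of 8.64-fold between Cl2 and Cl7 (95% interval 8.48 to 8.82), the widest step between neighbours among the sorted libraries. Cl3 was 62.4-fold above Cl4 (60.9 to 63.9) and 686-fold above the input (620 to 760), and even Cl4 was 11.0-fold above the input (9.91 to 12.2). With TMM factors, the ratios to the input were 1114 for Cl3 and 18.0 for Cl4. The place of Cl5 between Cl6 and Cl2 moved with the loci that took up its counts. Cl6 was 2.23-fold above Cl5 and Cl5 1.51-fold above Cl2 with RPKM, and 1.47-fold and 2.07-fold without Rn18s-rs5, Lars2 and mmu-mir-689-2 in the totals. In bulk libraries, fewer cells of a type and less RNA per cell cannot be told apart.

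Reads of the 3 genes made up 1.34% of all counts in Cl3 (95% Wilson interval 1.335% to 1.344%) and 1.05% in Cl6 (1.046% to 1.053%). The shares were 0.472% in Cl5, 0.311% in Cl2, 0.0348% in Cl7, 0.0252% in Cl1 and 0.0210% in Cl4. In the input, 387 of 20162876 counts fell on the genes, or 0.00192% (0.00174% to 0.00212%). By RPKM, Bglap ranked 2 and Bglap2 ranked 3 of all genes in Cl3, after mmu-mir-689-2, a locus of 57 bases. In Cl6 they ranked 4 and 6, behind Col1a1 and Sparc among others, and in the input 3660 and 2582.

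The size of the difference between Cl3 and Cl6 depended on the scaling. The ratio of the summed level was 1.28 (1.27 to 1.28) with RPKM and 1.01 with edgeR's TMM factors as well as with DESeq2's size factors. TMM factors raised every log2 value by 0.37 in Cl6, by 0.02 in Cl3 and by 0.44 in Cl5, and lowered it by 0.68 in the input and 0.14 in Cl1. The median gene among the 12360 that exceeded RPKM 2 in any sorted library had a log2 ratio of Cl3 to Cl6 of 0.24, against 0.35 for summed osteocalcin, and 41.7% of the genes had a higher ratio than osteocalcin. With TMM factors or DESeq2's size factors, Cl3 and Cl6 were therefore close to equal in summed osteocalcin. The order of all 7 sorted libraries was the same under the 6 alternatives tried.

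**Figure D1:**
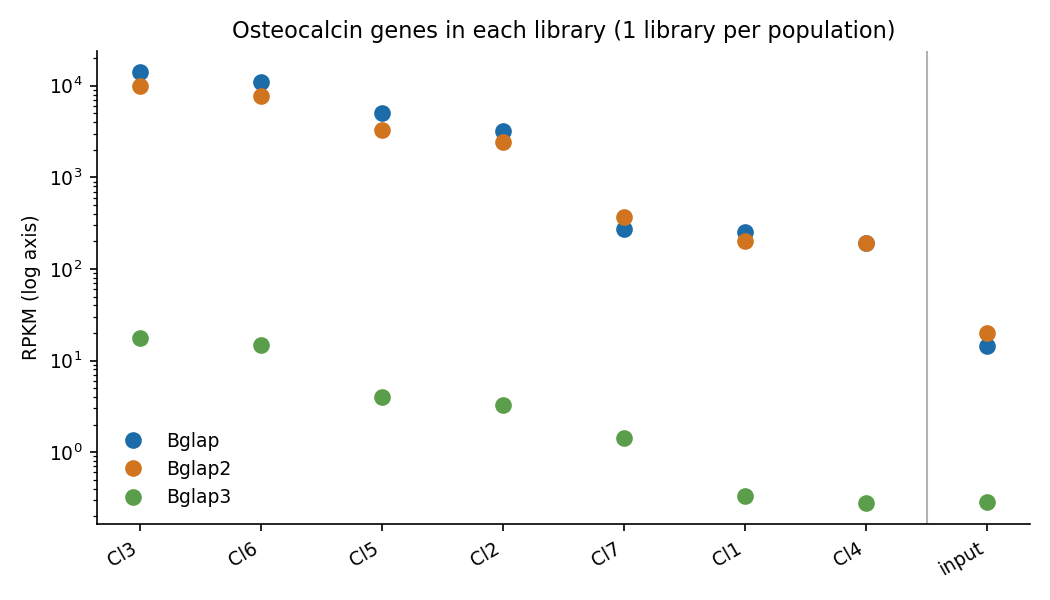
RPKM of Bglap, Bglap2 and Bglap3 (log axis) in each library, ordered by their sum, with 1 point for each gene and library and the input at the right. Bglap and Bglap2 fall together from 14020.2 and 9949 in Cl3 to 190.3 and 194 in Cl4, and Bglap3 runs far below them, from 17.7 to 0.280.

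Bglap had RPKM of 14020.2 in Cl3, 11032 in Cl6, 5097 in Cl5, 3176 in Cl2, 276 in Cl7, 254 in Cl1, 190.3 in Cl4 and 14.4 in the input. With RPKM, all neighbours in this order differed beyond counting error, the closest being Cl7 and Cl1 at a ratio of 1.09 (1.04 to 1.13). With TMM factors the closest were Cl3 and Cl6, at a ratio of 1.002. The 73.7-fold range over the sorted libraries (71.4 to 76.1) was wider than that of Bglap2, given next, and did not differ beyond counting error from that of Bglap3 (63.0-fold, 42.1 to 98.7).

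Bglap2 had RPKM of 9949 in Cl3, 7732 in Cl6, 3318 in Cl5, 2408 in Cl2, 369 in Cl7, 201 in Cl1, 194 in Cl4 and 20.2 in the input. Cl1 and Cl4 did not differ beyond counting error, with a ratio of 1.03 (0.979 to 1.09), and changed places with TMM factors (182 and 199). The range of Bglap2 over the sorted libraries was 51.3-fold (49.5 to 53.2).

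Bglap3 was measured far lower, with RPKM of 17.7 in Cl3, 14.7 in Cl6, 4.001 in Cl5, 3.27 in Cl2, 1.44 in Cl7, 0.330 in Cl1, 0.280 in Cl4 and 0.283 in the input. These values rested on 1259, 1226, 135, 218, 126, 21, 24 and 15 counts in the same order. Cl3 and Cl6 differed by 1.20-fold (1.11 to 1.30) with RPKM and in the opposite direction with TMM factors (18.0 and 19.0). Cl5 and Cl2 did not differ beyond counting error with RPKM, at a ratio of 1.22 (0.979 to 1.52), which was 1.65 with TMM factors. In contrast to Bglap and Bglap2, Bglap3 in the input did not differ beyond counting error from Cl4, at a ratio of 1.01 (0.492 to 2.004), or 0.616 with TMM factors.

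All 3 genes exceeded a 2-fold range of RPKM + 1 over the sorted libraries, as did 70.6% of the genes with RPKM above 2. A wider range than that of Bglap was found for 0.307% of these genes, than that of Bglap2 for 0.437% and than that of Bglap3 for 2.06%. All 3 were more than 2-fold higher in Cl3 than in Cl1, where 2.84% of genes were, than in Cl4 (4.57%), than in Cl7 (5.25%) and than in the input (4.33%). The 3 genes were also above 2-fold against Cl2 (8.11% of genes) and Cl5 (19.6%). Against Cl5, however, Bglap was 1.98-fold higher with DESeq2's size factors, and Bglap and Bglap2 were 1.82-fold and 1.99-fold higher without the 3 loci in the totals. None of the 3 was above 2-fold against Cl6 (12.9%). These shares are of the genes above RPKM 2 in either of the 2 libraries compared, while later shares for Cl3 and Cl6 are of the 12360 genes above it in any sorted library. Each ratio was formed on the same library, Cl3, which was taken because osteocalcin was highest there, so these counts are a description.

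The balance between the genes was not the same in all libraries. Bglap took 64.9% of the counts of Bglap and Bglap2 together in Cl3 (95% Wilson interval 64.7% to 65.1%), 65.2% in Cl6 (65.0% to 65.3%), 66.8% in Cl5 (66.5% to 67.2%) and 63.4% in Cl2 (63.0% to 63.7%). It took 62.4% in Cl1 (61.2% to 63.6%), 56.3% in Cl4 (55.1% to 57.5%), 49.5% in Cl7 (48.6% to 50.4%) and 48.4% in the input (43.4% to 53.5%). Cl4 and Cl7 lay below the other 5 sorted libraries beyond counting error, and Cl7 and the input did not differ from an equal split. A share of the counts does not depend on the library total, but it carries the uncertainty of reads shared by the genes. Per exon length, the ratio of Bglap to Bglap2 was 1.41 in Cl3, 1.54 in Cl5, 0.981 in Cl4, 0.747 in Cl7 and 0.715 in the input. Divided by the length of the spliced transcripts instead, a choice made after seeing the data, it was above 1 in all 8 libraries, with 1.98 in Cl3, 1.38 in Cl4, 1.05 in Cl7 and 1.004 in the input.

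Bglap3 took 0.347% of the counts of the 3 genes in Cl3 (0.328% to 0.366%), 0.369% in Cl6, 0.344% in Cl1, 0.352% in Cl4, 0.277% in Cl2 and 0.223% in Cl5. The share was higher in Cl7, with 1.09% (0.916% to 1.30%), and in the input, with 3.88% (2.36% to 6.30%, on 15 counts). Cl7 therefore stood apart from the other sorted libraries in both measures, with relatively less Bglap and relatively more Bglap3.

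**Figure D2:**
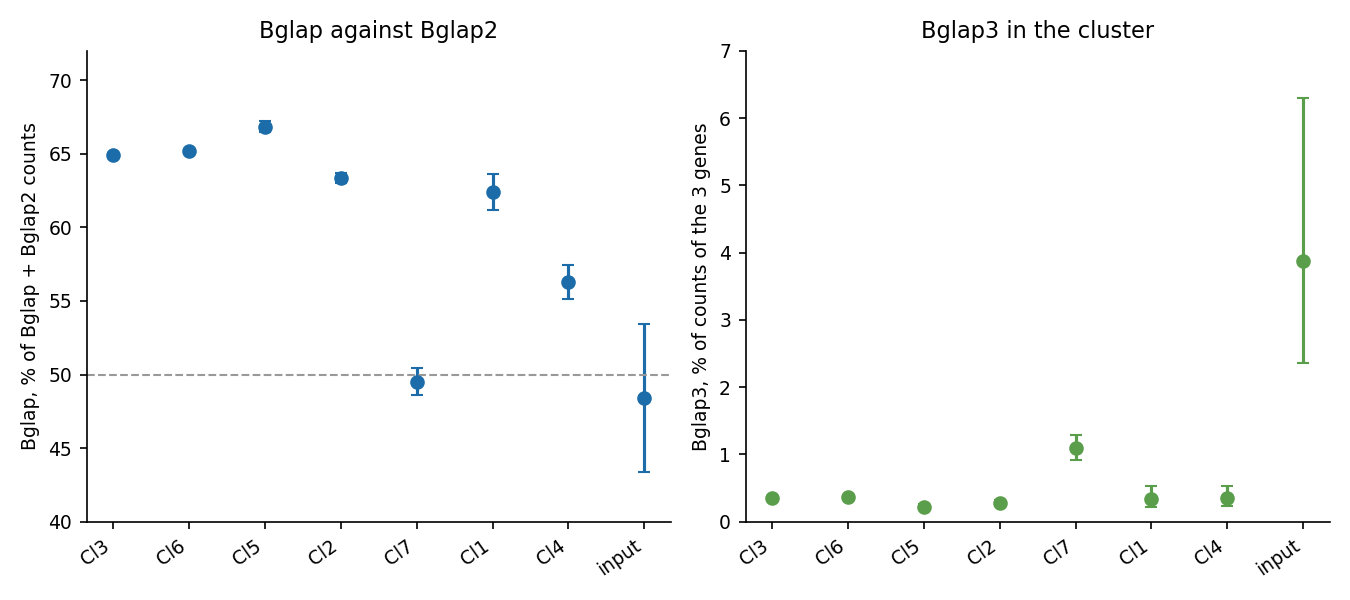
Left, share of Bglap in the counts of Bglap and Bglap2 (percent) in each library, with 95% Wilson intervals and a dashed line at 50%, on an axis that starts at 40%; right, share of Bglap3 in the counts of the 3 genes (percent). Bglap lies between 62.4% and 66.8% in 5 sorted libraries, at 56.3% in Cl4 and near the equal split in Cl7 and the input, the same 2 libraries in which Bglap3 is above 1%.

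The genes around the cluster did not follow osteocalcin. Of the 5 genes with counts on either side, 8 of 10 had RPKM above 2 in a sorted library and 5 of these 8 exceeded a 2-fold range (70.6% of all genes did), the widest range being 3.52-fold. Paqr6, which encodes a membrane progestin receptor and ends 0.075 kb from Bglap3, had its highest RPKM in Cl4 (3.39) and its lowest in Cl3 (0.258), the reverse of osteocalcin. Pmf1, which encodes a kinetochore protein and ends 9.68 kb from Bglap, had RPKM of 3.09 in Cl3, 3.61 in Cl4 and at most 4.82 among the sorted libraries, in Cl2. Smg5, a gene of nonsense-mediated decay, ranged from 2.78 in Cl4 to 4.38 in Cl6. Glmp, a lysosomal membrane protein gene, was highest in Cl3, at 18.4, but was 17.3 in Cl4.

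Between the osteocalcin genes, 2 genes on the opposite strand had few counts. Gm6821, between Bglap2 and Bglap, had RPKM of 1.84 in Cl3, 0.816 in Cl6, 0.719 in Cl5 and at most 0.170 in the other sorted libraries. ENSMUSG00000096792, between Bglap3 and Bglap2, had RPKM of 0.848 in Cl3 and at most 0.0756 elsewhere among the sorted libraries. Both were highest in Cl3, but on 27 counts for Gm6821 and 12 for ENSMUSG00000096792. In Cl6, the next library in osteocalcin, they had 14 and 1 counts. Neither gene exceeded RPKM 2 in a sorted library, and 9.85% of the genes that did were highest in Cl3. Whether the counts used strand is not given in the sources used here, so these reads cannot be assigned to either strand.

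**Figure D3:**
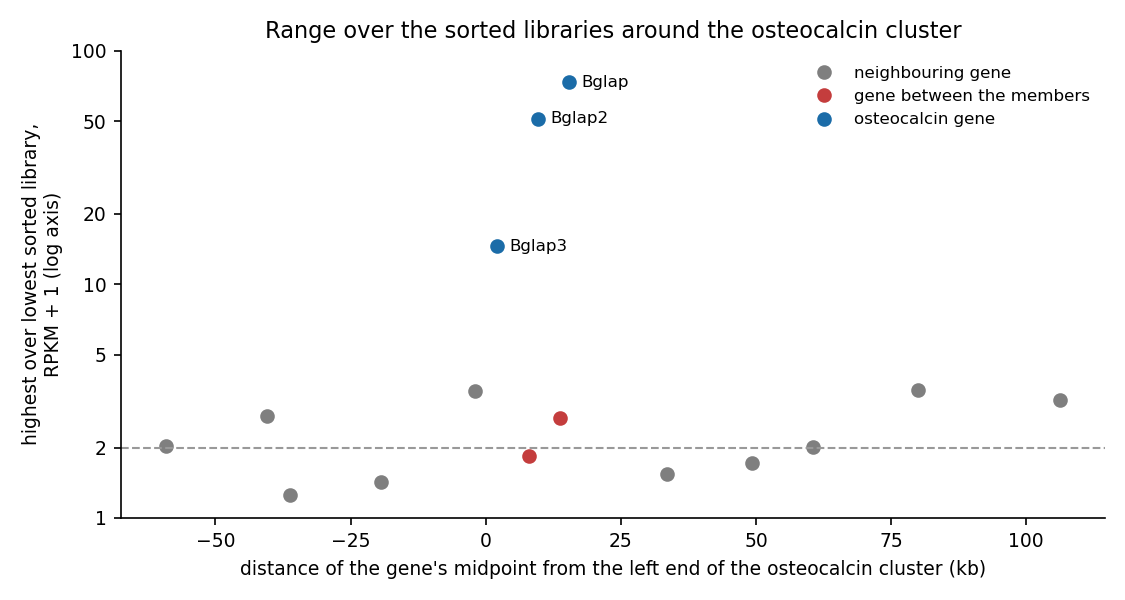
Highest over lowest sorted library in RPKM + 1 (log axis) for the osteocalcin genes, the 2 genes between them and the 5 genes on either side, against the distance of each gene's midpoint from the left end of the cluster in kb; the dashed line marks 2-fold. The osteocalcin genes lie at 14.6-fold and above, and no neighbour exceeds 3.52-fold.

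Other genes of the osteoblast were highest in Cl6, not in Cl3. Of the 12 listed osteoblast genes, all 12 had RPKM above 2 in a sorted library, 11 were highest in Cl6 and 1, Pth1r, which encodes the parathyroid hormone receptor, was highest in Cl2. With TMM factors all 12, Pth1r included, were highest in Cl6. Among all genes above RPKM 2, 7.10% were highest in Cl6 and 9.85% in Cl3, or 20.3% and 10.3% with TMM factors. At least 2-fold lower values in Cl3 than in Cl6 were found for 8 of the 12 (5.23% of all genes), and their median log2 ratio of Cl3 to Cl6 was -1.28, beside 0.24 for all genes. All 12 had a lower ratio than summed osteocalcin, and none was highest in Cl3 except 1 when the libraries were thinned to equal depth.

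Ibsp, which encodes bone sialoprotein, had RPKM of 3192 in Cl6, 740 in Cl7, 715 in Cl2, 676 in Cl4, 446 in Cl3, 219.6 in Cl5, 197 in Cl1 and 184 in the input. Cl3, with the highest osteocalcin, was thus among the 3 lowest sorted libraries in Ibsp. Alpl, which encodes the alkaline phosphatase of mineralising cells, had RPKM of 404 in Cl6, 124 in Cl2, 99.5 in Cl7, 85.3 in Cl3, 80.6 in Cl4, 49.8 in Cl5, 26.5 in Cl1 and 13.1 in the input. Col1a1, the main collagen of bone, reached 15952 in Cl6, against 6810 in Cl3, 5004 in Cl5 and 1962 in Cl4.

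A ratio of genes within a library does not depend on the library total or on scaling factors. Summed osteocalcin was 53.8 times Ibsp in Cl3, 38.3 times in Cl5, 7.81 times in Cl2, 5.88 times in Cl6, 2.31 times in Cl1, 0.873 times in Cl7, 0.568 times in Cl4 and 0.190 times in the input. By this measure Cl3 and Cl5 came first and Cl6 stood beside Cl2. Against Alpl, the ratio was 281 in Cl3, 169 in Cl5, 46.5 in Cl6, 45.2 in Cl2 and between 4.77 and 17.2 in Cl1, Cl4 and Cl7. Against Col1a1 it was 3.52 in Cl3, 1.68 in Cl5, 1.63 in Cl2, 1.18 in Cl6 and at most 0.249 in the others. The first 2 places of Cl3 and Cl5 were held for Spp1 and Sparc as well, at 19.1 and 9.88 times Spp1 and 2.62 and 2.19 times Sparc. Against Dmp1 they were not, with 220.4 times in Cl5, 156 in Cl2, 129.5 in Cl1 and 118 in Cl3.

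Markers of osteocytes, the cells embedded in bone, were also highest in Cl6. Of the 8 listed genes, 5 had RPKM above 2 in a sorted library, 4 of these were highest in Cl6 (7.10% of all genes were) and Pdpn was highest in Cl1. Dmp1, a matrix phosphoprotein gene, had RPKM of 415 in Cl6, 203 in Cl3, 38.2 in Cl5, 35.8 in Cl2, 10.7 in Cl7, 9.95 in Cl4, 3.51 in Cl1 and 1.47 in the input. The upper libraries in osteocalcin were all above the lower ones in Dmp1. Its widest step, however, lay between Cl3 and Cl5 (203 to 38.2), not between Cl2 and Cl7 (35.8 to 10.7). Sost and Fgf23, known from mature osteocytes, did not exceed RPKM 0.229 and 0.169 in any sorted library.

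**Figure D4:**
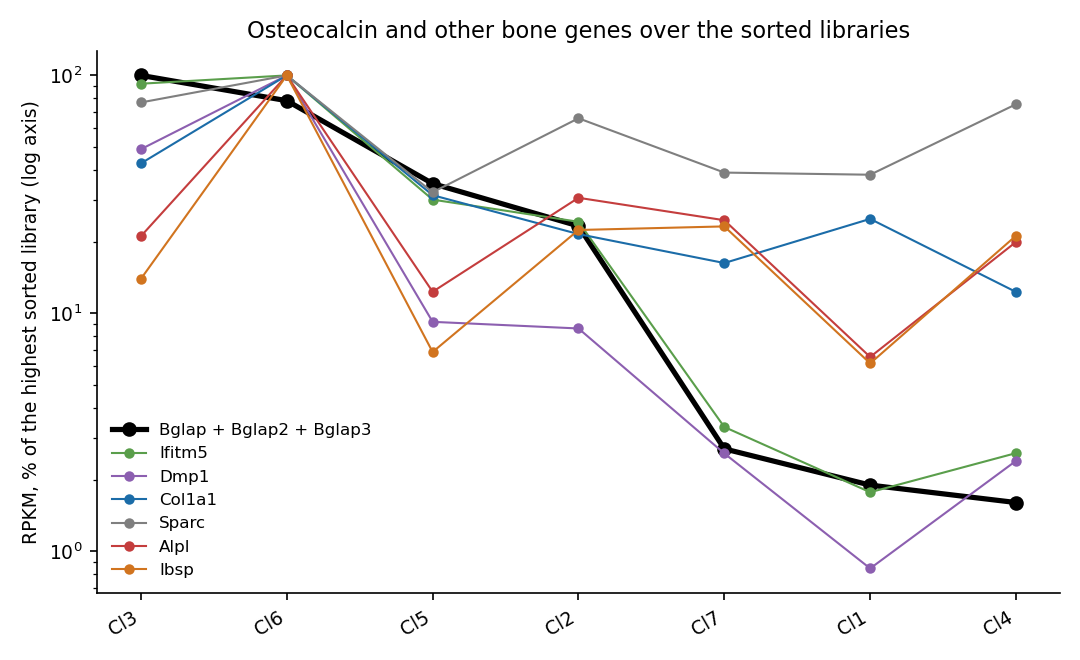
RPKM of summed osteocalcin and of 6 other bone genes in each sorted library, as a percentage of the highest sorted library of that gene (log axis), with the libraries ordered by osteocalcin. Ifitm5 runs along osteocalcin. Dmp1 drops from Cl2 to Cl7 (RPKM of 35.8 to 10.7) but more from Cl6 to Cl5 (415 to 38.2). Ibsp and Alpl rise to Cl6, while Cl3 reaches 446 of 3192 and 85.3 of 404 in RPKM.

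The genes whose pattern was most like summed osteocalcin were ranked by Pearson's r of log2(RPKM + 1) over the 7 sorted libraries, among 7623 genes, as a description without a test. The points share their libraries and depths, and 39 genes had r above 0.9. The 10 first were Ifitm5 (r = 0.993), Car3 (0.990), Ppfia2 (0.984), Lipc (0.981), BC055402 (0.977), Ccdc194 (0.964), Ranbp3l (0.961), Enpp6 (0.959), Cdh15 (0.957) and 2310069G16Rik (0.956). All 10 were highest in Cl6. Of these, BC055402 (RPKM of 2.09) and 2310069G16Rik (2.85) exceeded RPKM 2 in Cl6 alone among the sorted libraries, so the filter fixed this for them. Ppfia2 (2.88 in Cl6) and Ranbp3l (3.77) also lay close to the filter. The list depended on the measure, and 2 of the 10 were among the first by Spearman's rho, 5 with Bglap3 alone as the reference and 6 without Cl5. Ifitm5 encodes a small membrane protein of osteoblasts, Car3 a carbonic anhydrase, Ppfia2 a liprin, Lipc hepatic lipase, Enpp6 a choline-releasing phosphodiesterase and Cdh15 M-cadherin.

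Ifitm5 had RPKM of 168 in Cl6, 155 in Cl3, 50.4 in Cl5, 40.7 in Cl2, 5.58 in Cl7, 4.34 in Cl4, 2.97 in Cl1 and 4.21 in the input. Summed osteocalcin stayed between 88.6 and 167 times Ifitm5 over the sorted libraries, a range of 1.88-fold, which follows from its choice as the gene most alike over these libraries. In the input the ratio to Ifitm5 was 8.29. Car3 had RPKM of 272 in Cl6, 245 in Cl3, 115 in Cl5, 68.1 in Cl2 and between 6.49 and 9.06 in Cl1, Cl4 and Cl7. Lipc reached 33.3 in Cl6 and 28.7 in Cl3 and was below 1 in Cl1, Cl4 and Cl7.

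For genes of the vitamin K cycle and of processing, which carboxylate and cleave the precursor, no such range was found. All 8 had RPKM above 2 in a sorted library, 5 exceeded a 2-fold range (70.6% of all genes did), 4 were highest in Cl6 (7.10% of all genes were) and 1 in Cl3 (9.85%). With TMM factors 6 were highest in Cl6 (20.3% of all genes), and 2 were highest in Cl3 at equal depth. Ggcx, the gamma-glutamyl carboxylase, had RPKM of 37.1 in Cl6, 29.7 in Cl3, 26.5 in Cl7, 22.3 in Cl4, 21.2 in Cl1, 12.8 in Cl2 and 9.25 in Cl5. Cl5 and Cl2, the third and the fourth in osteocalcin, had the lowest values of Ggcx. Vkorc1, which recycles vitamin K, lay between 102 in Cl5 and 284 in Cl2, with 213 in Cl3, and it shares 47.7% of its exon bases with an overlapping gene model. Furin, the protease that removes the propeptide, lay between 2.61 in Cl5 and 11.7 in Cl6. Aifm2, a vitamin K reductase, was highest in Cl3 (8.28), where it was above 2-fold over Cl6 (2.95) with RPKM but not with TMM factors.

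Of the 15 listed transcriptional regulators of osteocalcin, 14 had RPKM above 2 in a sorted library and all 14 exceeded a 2-fold range (70.6% of all genes did). Of these 14, the regulator highest in Cl3 was Dlx3, a homeobox gene, with RPKM of 19.5 in Cl3, 12.8 in Cl6, 4.60 in Cl5, 4.30 in Cl2, 3.17 in Cl1, 2.47 in Cl7 and 1.58 in Cl4. Runx2, the master regulator of osteoblasts, was highest in Cl2 (11.1) and had 8.24 in Cl6 and 4.37 in Cl3, below the 5.72 of Cl4. Sp7, which acts downstream of Runx2, had RPKM of 38.6 in Cl6, 21.7 in Cl2, 20.8 in Cl3, 10.03 in Cl5, 8.42 in Cl7, 3.38 in Cl4 and 2.27 in Cl1. Vdr, the vitamin D receptor, had 10.6 in Cl6, 6.88 in Cl2 and 6.86 in Cl3. Sp7 and Vdr were each higher in the 3 libraries of Cl2, Cl3 and Cl6 than in Cl1, Cl4 and Cl7. Hey1, a repressor of Runx2, had 6.87 in Cl1 and 6.85 in Cl4 and was lowest in Cl6 (1.59). Other listed regulators also ran against osteocalcin. Fosl2 was highest in Cl1 (16.5) and lowest in Cl3 (7.44), and Jund was highest in Cl1 (475) and lowest in Cl6 (183). Of the 14, 5 were highest in Cl6 (7.10% of all genes were), and those other than Dlx3 and these 5 were highest in Cl1, Cl2 or Cl4. None of the 14 differed more than 2-fold between Cl3 and Cl6 in either direction with RPKM, where 11.5% of all genes were higher in Cl3 and 5.23% in Cl6. With TMM factors 3 were more than 2-fold lower in Cl3, as were 8.71% of all genes. Their median log2 ratio was -0.07 beside 0.24 for all genes, and -0.36 beside -0.02 with TMM factors.

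Other genes of Gla proteins, which carry the same modified residue, differed in where they were highest. Of 14, 7 had RPKM above 2 in a sorted library, and none was highest in Cl3 (9.85% of all genes were) or Cl6 (7.10%). Mgp, the matrix Gla protein that inhibits calcification, had RPKM of 2263 in Cl4, 1260 in Cl2, 905 in Cl7, 792 in Cl1, 677 in Cl5, 457 in Cl6, 245 in Cl3 and 475 in the input. Among the sorted libraries, its highest was the lowest in osteocalcin and its lowest the highest. Gas6, a ligand of TAM receptors, was also highest in Cl4 (308) and lowest in Cl6 (16.9). Ucma, a Gla protein of cartilage, had 384 in Cl2, 114 in Cl6, 87.1 in Cl4 and 4.84 in Cl3. The proposed receptors Gprc6a, Gpr158 and Gpr37 did not reach RPKM 2 in any library, and their summed RPKM was at most 0.276 in the sorted libraries and 1.37 in the input.

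**Figure D5:**
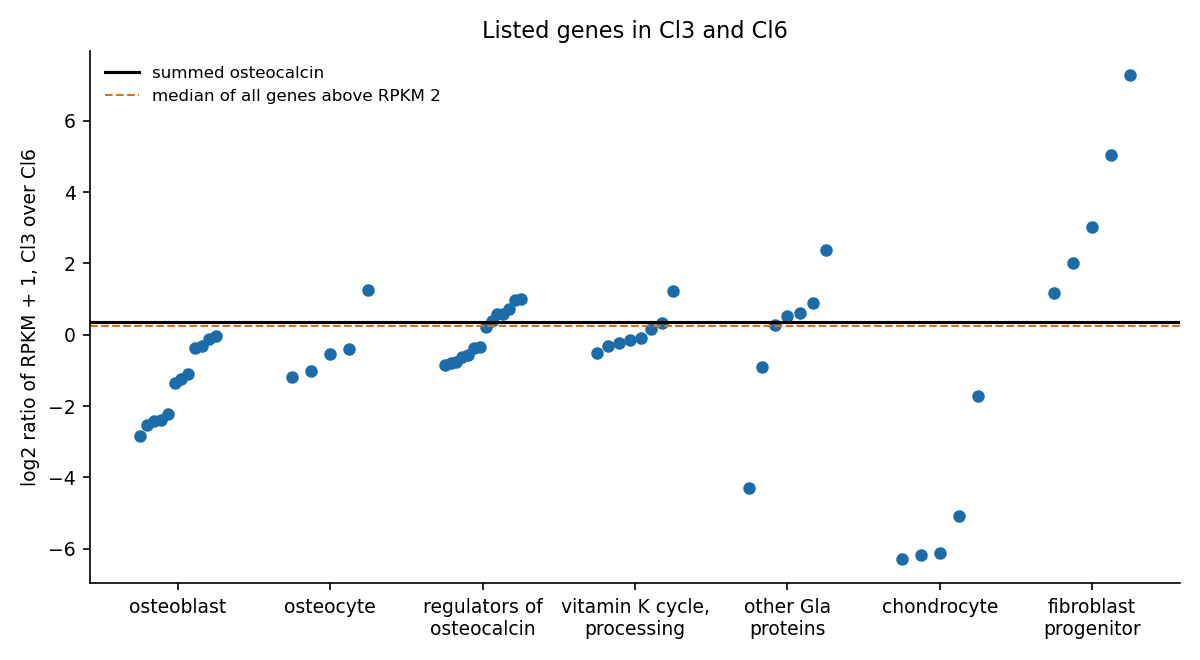
log2 ratio of RPKM + 1 in Cl3 over Cl6 for the listed genes above RPKM 2, 1 point for each gene, with a solid line at summed osteocalcin (0.35) and a dashed line at the median of all genes (0.24). All 12 osteoblast genes and all 5 chondrocyte genes lie below the osteocalcin line, and all 5 fibroblast progenitor genes lie above it.

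Markers of chondrocytes and of fibroblast progenitors divided Cl6 from Cl3. All 5 listed chondrocyte genes were above 2-fold higher in Cl6 than in Cl3 (5.23% of all genes were), and their summed RPKM was 11516 in Cl6, 9760 in Cl2, 3235 in Cl4, 268 in Cl1, 259 in Cl7, 197 in Cl3, 195 in Cl5 and 144 in the input. Col2a1, their most abundant gene, had RPKM of 10541 in Cl6 and 134 in Cl3. Among the 4 upper libraries in osteocalcin, Cl2 and Cl6, with high chondrocyte genes, were those with the lower ratio of osteocalcin to Ibsp, and the part of such cells in that ratio was not tested. The 5 listed fibroblast progenitor genes were all above 2-fold higher in Cl3 than in Cl6 with RPKM (11.5% of all genes were), and 4 of them with TMM factors (7.51%). Their most abundant gene, Ly6a, which also encodes the sort marker Sca-1, had RPKM of 931 in Cl3, the highest of all libraries.

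Blood cell markers did not follow the order of osteocalcin. Summed RPKM of the 4 matched erythroid genes of 6 was highest in Cl5 (43223), followed by Cl1 (8214), Cl2 (7045) and Cl3 (4432), and was 841 in Cl6; Hba-a1 was the most abundant. The 6 B lineage genes summed to 32.9 in Cl3 and 82.2 in Cl6, led by Cd79a, and the 5 macrophage genes to 15.1 and 26.7, led by Cd68. Both sums, like that of the neutrophil genes, were lowest in Cl3 among all libraries. The 5 megakaryocyte genes, led by Pf4, summed to 87.9 in Cl3, their highest library, and 6.21 in Cl6. The 6 osteoclast genes, led by Ctsk, summed to 637 in Cl7 and 340.0 in Cl3, with Calcr at 0 counts in Cl1 to Cl4. The 5 endothelial genes, led by Tek, summed to at most 11.4 in the sorted libraries, and the 6 reticular genes, led by Cxcl12, were highest in Cl4, at 209, with 44.5 in Cl3. The part of these cells in the osteocalcin values was not tested.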

How the data were processed

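Counts of reads on the exons of each gene were deposited without normalization, beside the exon length. Per the labels and the methods, reads were aligned by TopHat2 to mm9 in Partek 2.2, whereas the deposited coordinates are those of GRCm38. The counting tool and its treatment of shared reads are not given in the sources used here. RPKM was computed from the counts, the total count on genes (12833648 to 33238133 reads) and the exon length. Symbols were found for 37851 of 49315 genes, through a name table and RefSeq synonyms or positions (80% overlap), and 60 symbols were moved to the gene at the RefSeq position. Because each population had 1 library, edgeR and DESeq2 gave scaling factors only and no p-value was computed. Shares have 95% Wilson intervals and ratios exact conditional binomial intervals, and ratios of summed RPKM have intervals from propagated Poisson error. PCR copies were not separated, so these cover counting error only. The genes named are the members, 5 genes with counts on either side, the 10 genes with a symbol most alike (RPKM above 2, at least 50 counts, above 2-fold range) and the listed genes. A listed regulator is counted but not reported here by name. The members and lists were chosen with earlier results of these data known. The calculations were tested on simulated data. edgeR 4.0.16 and DESeq2 1.42.0 were run in R 4.3.3, and scipy 1.17.1, pandas 2.3.3, matplotlib 3.10.9 and numpy 2.4.6 in Python 3.11.15.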

Additional observations from a re-analysis of the deposited data

How the results depend on the processing

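Each population had 1 library, so the variation between sorts is not in any value above. No paired analysis was possible because the groups hold a lone library each. The range of summed osteocalcin over the sorted libraries lay within its counting interval under all 7 alternatives, and the order of the 7 libraries was kept under all 6. The ratio of Cl3 to Cl6 was 1.01 with TMM factors, 1.01 with DESeq2 size factors and 1.29 without haemoglobin and mitochondrial genes. The ratio of Cl3 to the input was 1114 with TMM factors and 1103 with DESeq2 size factors, and the cause was not tested; the input held 17570 genes above RPKM 2. The number of genes above a 2-fold range was 4935 with RPKM above 2 in all 7 sorted libraries, and 6304 without Cl5, an alternative chosen after seeing the data, against 8726. Of the 10 genes most alike osteocalcin, 2 were among the 14 first by Spearman's rho, where ranks of 7 libraries tie, 6 without Cl5 and 5 with Bglap3 alone as the reference. The other alternatives kept 7 to 10. The ratio of Bglap to Bglap2 turned from below to above 1 when divided by spliced transcript length, at 1.38 in Cl4, 1.05 in Cl7 and 1.004 in the input. Bglap3 in Cl4, at 24 counts, in Cl1, at 21, and in the input, at 15, is limited by depth.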
